A study of Mus musculus with 24 samples.

Results

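The genes described here encode the machinery that carries vesicles to and from the apical membrane: SNAREs with their Sec1/Munc18 (SM) partners, Rab GTPases, Rab11 effectors with the motor myosin Vb, the exocyst, retromer, clathrin with AP-2 and dynamin, and the membrane proteins Anxa2 and Mal. They were chosen by symbol from what is known of the pathway, and no value of these libraries entered the choice by rule, although earlier results of the data were known when the list was drawn up. Of 44 listed symbols, 43 were found among the 54432 genes of the deposited tables, and Vamp7 was not analysed here. All 43 passed the filter on low counts and reached a mean of at least 5 CPM (counts-per-million) in a group.

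The cells were mpkCCD, an immortalised mouse cortical collecting duct line labelled wild type on a C57BL/6 background and used at passages 10 to 11. They were grown on permeable filters for 6 days and kept in minimal medium for 24 h. The 4 dDAVP groups then received dDAVP, an analogue of vasopressin that acts on the V2 receptor, on the basolateral side for 3, 6, 12 or 24 h, and the 4 vehicle groups received vehicle for the same times. Each of the 8 groups had 3 libraries, all from this immortalised line in culture. No label says whether the 3 libraries of a group came from separate cultures, and the p-values therefore rest on spread between libraries that may be technical.

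In principal cells, vasopressin raises cAMP, and protein kinase A then drives vesicles that hold the water channel aquaporin-2 to the apical membrane. Rab11 proteins, their effectors and myosin Vb move cargo through recycling endosomes, the exocyst tethers vesicles, and a vesicle SNARE pairs with syntaxins and Snap23 at the target membrane to fuse them. Clathrin, AP-2 and dynamin take the channel back into the cell, and retromer sorts cargo out of endosomes. The comparisons ask whether the RNA of this machinery changes along with that of its cargo, Aqp2.

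The libraries held 17.3 M to 27.6 M estimated counts (median 21.3 M). Principal cell markers with a mean of at least 1 TPM (transcripts-per-million) were 8 of 12, among them Gata3 at 48.6 TPM and Avpr2, the V2 receptor, at 16.2 TPM, while Aqp4 averaged 0.256 TPM. Epithelial markers were 10 of 10 and intercalated cell markers 0 of 6, of which Aqp6 was highest at 0.625 TPM. A single gene, Gm24245, took 37.4% to 51.7% of all TPM in a library. This lowers the TPM of every other gene, here and below. Counts at the floor of 1 TPM depend on it, with Aqp6 and the principal cell marker Elf5 (0.816 TPM) not far under that floor. Summed over their lists, markers of other cell types were low beside those of epithelium (2363 TPM in dDAVP and 2336 TPM in vehicle libraries). They made 1.71 TPM in dDAVP and 2.10 TPM in vehicle libraries for intercalated cells, 2.93 TPM in dDAVP and 3.97 TPM in vehicle libraries for proximal tubule, and 1.77 TPM in dDAVP and 2.78 TPM in vehicle libraries for endothelium. Immune markers summed to 4.62 TPM in dDAVP and 5.46 TPM in vehicle libraries, most of it Cd68, thick limb and distal tubule markers to 0.956 TPM in dDAVP and 1.77 TPM in vehicle libraries, and fibroblast markers to 0.952 TPM in dDAVP and 1.8 TPM in vehicle libraries. The part of these differences in the results was not tested. The libraries differed in the share of counts that fell on 1962 olfactory and vomeronasal receptor genes, from 0.1397% to 0.933%. That share averaged 0.387% ± 0.126 in dDAVP and 0.652% ± 0.266 in vehicle libraries at 3 h, 0.203% ± 0.0754 in dDAVP and 0.544% ± 0.0756 in vehicle libraries at 6 h, 0.346% ± 0.0538 in dDAVP and 0.493% ± 0.295 in vehicle libraries at 12 h, and 0.208% ± 0.0455 in dDAVP and 0.233% ± 0.0677 in vehicle libraries at 24 h (SD, n = 3 each). The libraries with the highest shares were vehicle 3 h replicate 1 and vehicle 12 h replicate 1. Each comparison below is therefore given both without and with this share (log2) in the model. In these bulk libraries fewer cells of a type and less RNA per cell cannot be told apart.

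Aqp2 RNA, the cargo, was far higher in dDAVP than in vehicle libraries at every time. At 3 h, Aqp2 had 109.7, 126 and 122 CPM in the dDAVP libraries, against 5.03, 5.72 and 6.48 CPM in the vehicle libraries. At 6 h, Aqp2 had 190.3, 177 and 231 CPM in the dDAVP libraries, against 5.04, 4.13 and 6.06 CPM in the vehicle libraries. The lowest dDAVP library stood well above the highest vehicle library at both times. At 12 h, Aqp2 had 126, 139 and 144 CPM in the dDAVP libraries, against 5.31, 7.35 and 8.12 CPM in the vehicle libraries. At 24 h, Aqp2 had 222, 214 and 235 CPM in the dDAVP libraries, against 5.47, 4.48 and 6.54 CPM in the vehicle libraries. The groups again did not overlap, and the 6 h and 24 h dDAVP libraries were higher than those of 3 h and 12 h. Aqp2 was tested with all other genes by edgeR's quasi-likelihood F test, with p adjusted by Benjamini-Hochberg (BH), and was 20.8-fold higher with dDAVP at 3 h, 39.2-fold at 6 h, 19.8-fold at 12 h and 40.7-fold at 24 h. Its mean effect over the 4 times was a log2 difference of 4.83 ± 0.08 (SE, adjusted p = 2.023e-23), and 4.82 ± 0.08 with the receptor share as a covariate (adjusted p = 4.231e-24). Among the 43 trafficking genes the largest mean effect was 0.28, that of Vamp2, by the same scaling and without the covariate.

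**Figure D1:**
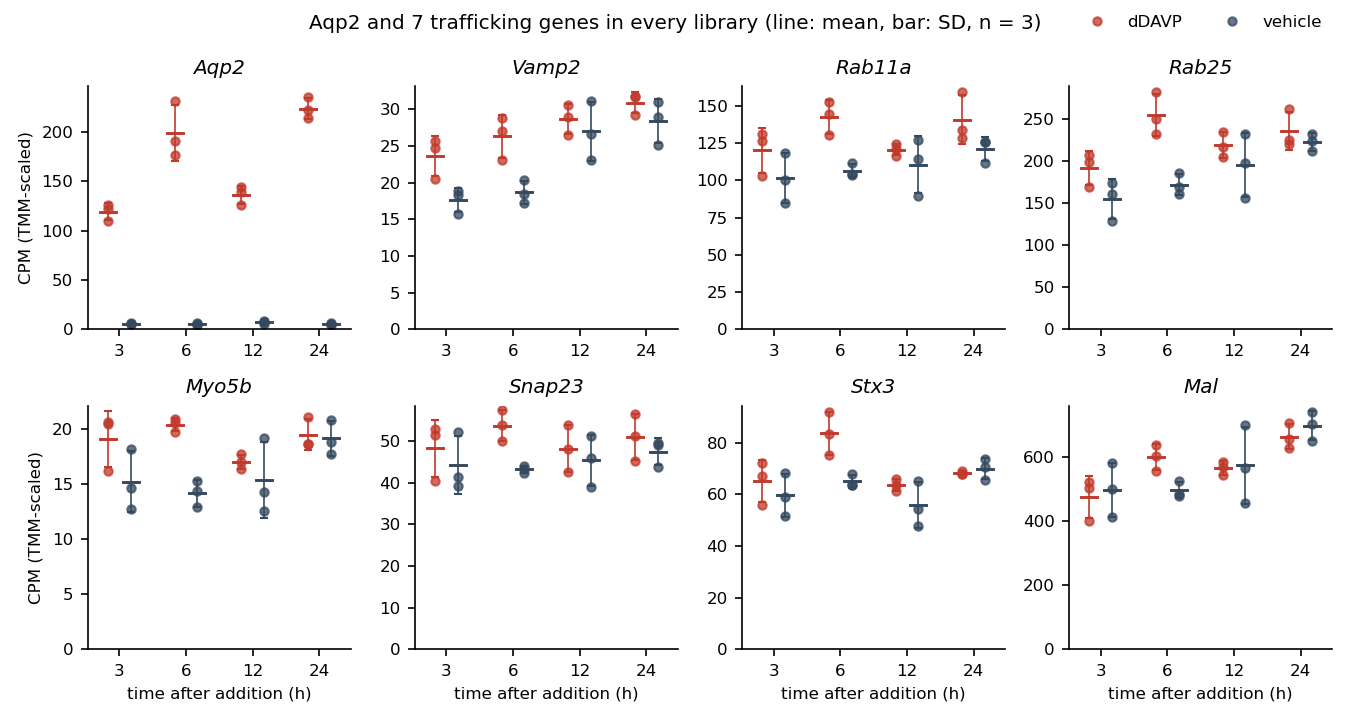
CPM of Aqp2 and of 7 trafficking genes in every library (y axis) against hours after dDAVP or vehicle (x axis), with each group's mean and SD over 3 libraries. Aqp2 dDAVP libraries lie between 110 and 235 CPM, all above the vehicle libraries at 4.13 to 8.12 CPM, while the dDAVP and vehicle points of the trafficking genes lie close together and overlap at most times other than 6 h.

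All 43 trafficking genes were expressed in every library. Their mean levels over the 24 libraries ran from 1.37 TPM for Rab11fip2 to 780.1 TPM for Hspa8, with a median of 20.9 TPM. Together they held 2995 ± 171 TPM (SD, n = 24). Levels between genes are compared in TPM, which is per transcript length. The variation between libraries was small: the highest library held 1.24 to 2.67 times the TPM of the lowest (median 1.47), and the coefficient of variation of CPM was 6.58% to 20.1%.

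Among the vesicle SNAREs, Vamp8, an endosomal and secretory granule SNARE, led at 110.9 TPM. Vamp3, of recycling endosomes, followed at 27.8 TPM, and Vamp2, the SNARE most often tied to aquaporin-2 vesicles, at 10.0 TPM. The 3 ranges did not overlap, with Vamp8 4.21 ± 0.969 times Vamp3 and Vamp3 2.82 ± 0.743 times Vamp2 (SD over 24 libraries). Of the target SNAREs, the late endosomal syntaxin Stx7 was highest at 51.3 TPM. Stx4a, a plasma membrane syntaxin, stood at 17.6 TPM, the plasma membrane partner Snap23 at 15.4 TPM and the apical syntaxin Stx3 at 15.3 TPM, and the ranges of neighbours in this order overlapped. Stx12, a recycling endosome syntaxin, was below them at 11.1 TPM. Stxbp2, the SM protein that binds Stx3, was at 58.3 TPM, 2.82 ± 0.231 times Stxbp3, the SM protein that binds Stx4, at 20.8 TPM.

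Rab25, the Rab11 relative found in epithelia, was the most abundant of the 8 Rabs at 138.2 TPM. Rab11a followed at 92.0 TPM and Rab11b at 83.4 TPM. Rab25 was 1.51 ± 0.1395 times Rab11a (SD over 24 libraries) with no overlap of their ranges, while the ranges of Rab11a and Rab11b overlapped. Of the summed TPM of these 3 genes, Rab25 held 44.5% ± 2.28 in dDAVP and 43.7% ± 1.89 in vehicle libraries (SD, n = 12 each). Rab11a held 29.7% ± 1.57 in dDAVP and 28.9% ± 1.37 in vehicle libraries. Rab11b held 25.8% ± 1.22 in dDAVP and 27.4% ± 1.12 in vehicle libraries. These shares pool the 4 times. At 24 h Rab11b held 24.4% ± 1.04 in dDAVP and 27.8% ± 1.24 in vehicle libraries, and Rab11a 29.9% ± 0.762 in dDAVP and 28% ± 0.680 in vehicle libraries (SD, n = 3 each), with no overlap of the groups for either gene and no test run on the shares. The groups of Rab11b did not overlap at 6 h either, at 25.4% to 26.7% in dDAVP and 26.79% to 28.8% in vehicle libraries. All other single-time groups of the 3 genes overlapped. How often such shares separate in other gene families was not counted.

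Rab14, a Rab of early endosomes and the Golgi, averaged 77.5 TPM, Rab7 of late endosomes 75.7 TPM, Rab8a of exocytic carriers 44.9 TPM and Rab5a of early endosomes 20.9 TPM. Rab27a, which docks secretory vesicles, was lowest at 2.31 TPM. The genes of the Rab11 effectors and their motor had lower mean TPM than each of these Rabs other than Rab27a. Rab11fip1 averaged 7.41 TPM, Rab11fip5 7.06 TPM, the motor Myo5b 2.33 TPM and Rab11fip2 1.37 TPM. Summed, the 4 genes made 18.2 ± 1.66 TPM against 534.9 ± 30.3 TPM for the 8 Rabs (SD, n = 24).

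The 8 exocyst subunits summed to 82.9 ± 7.33 TPM and ran from Exoc7, a subunit that binds the plasma membrane, at 21.5 TPM to Exoc8 at 3.60 TPM. Exoc7 stood 1.72 times above the next subunit, Exoc3 at 12.7 TPM, without overlap, while the ranges of each later pair of neighbours overlapped. In retromer, Vps29 averaged 99.0 TPM, Vps35 52.1 TPM and Vps26a 19.4 TPM, with no overlap. In the endocytic group, the uncoating chaperone Hspa8 stood at 780.1 TPM and the AP-2 subunit Ap2m1 at 494.2 TPM. The other AP-2 subunits were much lower, Ap2b1 at 15.3 TPM and Ap2a1 at 9.48 TPM. The clathrin light chain Clta averaged 59.2 TPM, the light chain Cltb 31.3 TPM, the heavy chain Cltc 27.7 TPM and the scission GTPase Dnm2 27.9 TPM. Clta held 65.4% of light chain TPM in dDAVP and 65.4% in vehicle libraries. The calcium-dependent membrane binder Anxa2 averaged 260.3 TPM, and Mal, a raft protein of apical carriers, 144.9 TPM.

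**Figure D2:**
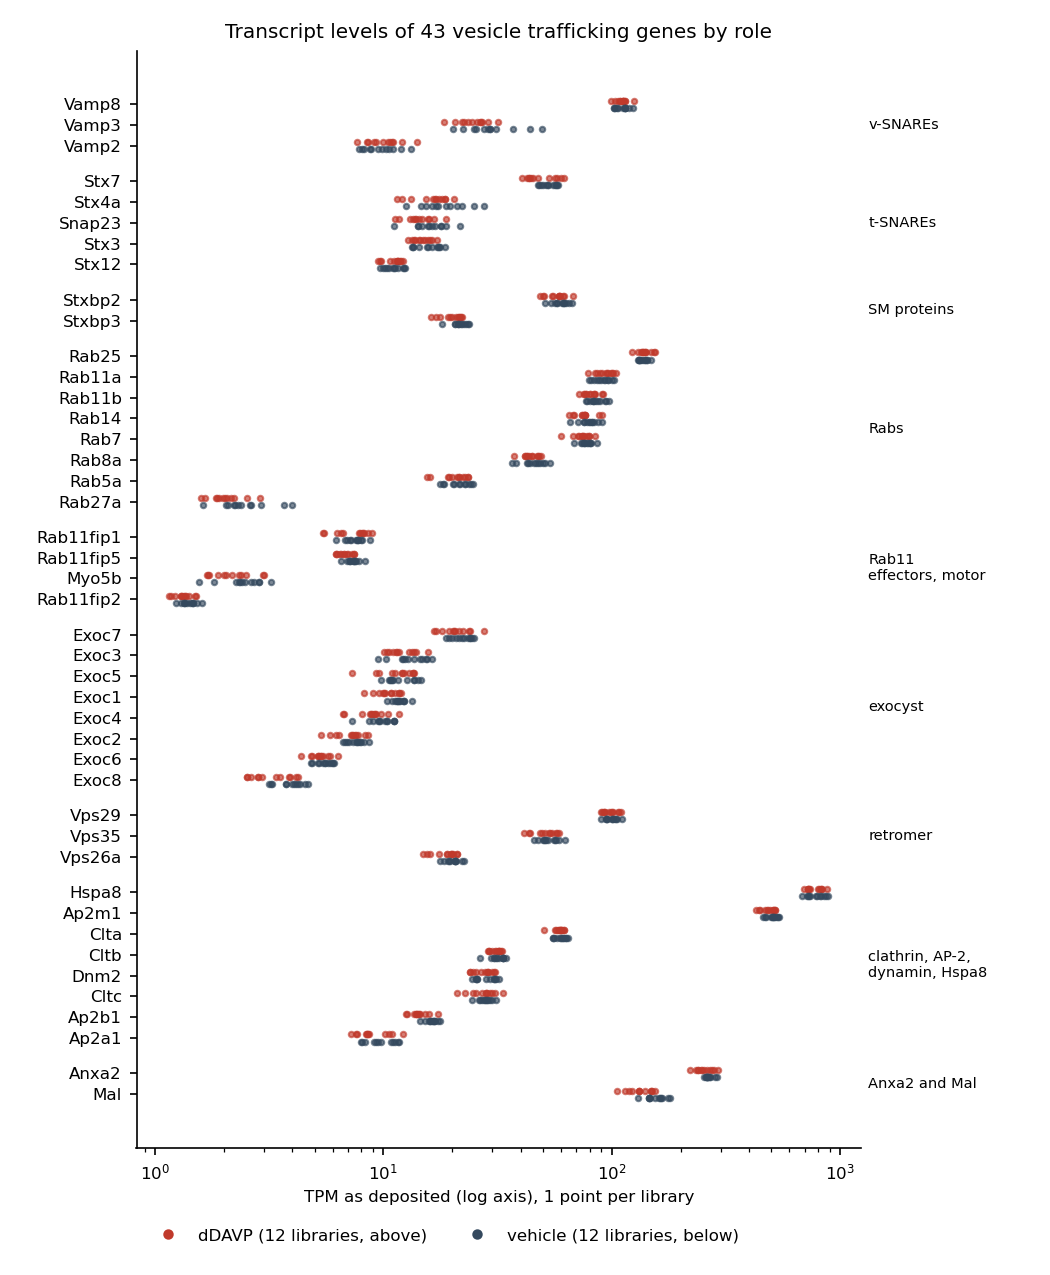
TPM of the 43 trafficking genes in each library (log axis), ordered by role, with dDAVP libraries above vehicle libraries for each gene. The levels span 1.37 to 780.1 TPM between genes, and the spread of libraries within a gene is narrow beside it.

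Promoter windows of 250 bases before the start site were found for 37 of the 44 listed genes in RefSeq sequence of build GRCm38.p6. Vamp2, Vamp3, Vamp7, Rab11fip1, Myo5b, Vps35 and Hspa8 had none. The cAMP response element, the letters at which the protein kinase A target CREB binds, was searched as TGACGTCA and in its short form TGACG, on both strands. Each full element contains the short form on both strands. Windows of Aqp2, Rab25, Rab11a and Mal are printed because Aqp2 is the cargo, Rab25 holds a full element beside its start, Rab11a a short one, and Mal neither. They lie at chr15:99578806-99579055 on the plus strand for Aqp2, at chr3:88548280-88548529 on the minus strand for Rab25, at chr9:64737757-64738006 on the minus strand for Rab11a and at chr2:127656696-127656945 on the minus strand for Mal. Each reads 5′ to 3′ towards the start site, and capitals mark the element's letters.
Aqp2: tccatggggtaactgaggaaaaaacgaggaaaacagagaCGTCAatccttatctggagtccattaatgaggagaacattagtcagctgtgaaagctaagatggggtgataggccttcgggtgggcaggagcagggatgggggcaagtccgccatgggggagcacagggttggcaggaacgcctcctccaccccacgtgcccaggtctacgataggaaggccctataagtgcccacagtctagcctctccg
Rab25: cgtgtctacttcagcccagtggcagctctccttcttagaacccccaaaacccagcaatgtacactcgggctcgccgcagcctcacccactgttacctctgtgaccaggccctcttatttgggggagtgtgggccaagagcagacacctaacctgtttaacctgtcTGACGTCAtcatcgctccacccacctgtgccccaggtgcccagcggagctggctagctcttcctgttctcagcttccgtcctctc
Rab11a: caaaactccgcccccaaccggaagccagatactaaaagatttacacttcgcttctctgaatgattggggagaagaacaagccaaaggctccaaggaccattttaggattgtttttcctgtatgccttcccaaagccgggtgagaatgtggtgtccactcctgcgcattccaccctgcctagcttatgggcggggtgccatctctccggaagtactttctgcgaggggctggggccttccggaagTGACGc
Mal: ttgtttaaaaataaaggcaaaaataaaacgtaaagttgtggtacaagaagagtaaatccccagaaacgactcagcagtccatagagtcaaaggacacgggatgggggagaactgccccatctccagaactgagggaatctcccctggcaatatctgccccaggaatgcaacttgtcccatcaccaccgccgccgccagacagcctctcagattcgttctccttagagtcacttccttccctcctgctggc
The full element lay in the windows of Stxbp3, Rab5a, Rab25, Cltb and Ap2b1, with its first base at -108, -28, -85, -21 and -47, counted back from the window's end with its last base as -1. Those were 10.6% of the 47 member windows, beside 1.55% of all 32851 windows and 2.56% of the 11993 windows of genes of at least 5 CPM. The short form was in 44.7% of member windows, beside 17.8% of all windows and 26.3% of windows of genes of at least 5 CPM. Member windows were also richer in G and C, at a median of 58.4% against 52.4% over all windows. The GC box GGGCGG, searched in the same way, was in 57.4% of member windows, beside 32.7% of all windows and 56.4% of windows of genes of at least 5 CPM. The CCAAT box, letters CCAAT, was in 44.7% of member windows, beside 33.8% of all windows and 35.8% of windows of genes of at least 5 CPM. These matches describe letters, and binding was not measured.

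At 3 h, 0 of the 43 trafficking genes passed edgeR's quasi-likelihood test with BH adjustment (background 0.484% of all 29743 genes tested). An unadjusted p under 0.05 was found for 10, and DESeq2 also called 0. The backgrounds here and below are for adjusted p, and none is given for the unadjusted counts, which cannot be read as an excess. At 6 h, 24 of the 43 passed (55.8%), all higher in dDAVP than in vehicle libraries by TMM-scaled counts. The background at 6 h was 38.1% of all genes tested, 20.9% as higher, and among genes of at least 5 CPM, the range in which all members lie, 59.1% passed, 46.5% as higher. At 12 h 0 passed (background 0.0773%; 1 with an unadjusted p under 0.05), and at 24 h 0 passed (background 0.0841%; 0 with an unadjusted p under 0.05), with 0 called by DESeq2 at both times. For the mean effect over the 4 times, 27 of the 43 passed (62.8%), all higher, against 33.1% of all genes tested (16.7% as higher) and 49.8% of genes of at least 5 CPM (37.3% as higher). Both counts moved with single libraries. BH adjustment runs over all genes, so such a count can move with the calls over all genes, whose shares in these fits are not given here. The 6 h count was 0 without vehicle 6 h replicate 1 or 2 or without dDAVP 6 h replicate 1 or 2, 2 without vehicle 6 h replicate 3, and 11 without dDAVP 6 h replicate 3 or vehicle 3 h replicate 3. It was 5 to 8 without dDAVP 3 h replicate 3, without any 1 of the dDAVP 12 h or dDAVP 24 h libraries, or without vehicle 24 h replicate 2 or 3, and 21 to 29 without any other. The count of the mean effect was 1 without vehicle 24 h replicate 3, 3 without dDAVP 3 h replicate 3 or dDAVP 6 h replicate 2, 4 to 8 without any 1 of dDAVP 3 h replicate 2, dDAVP 6 h replicate 1, dDAVP 12 h replicates 1 to 3, dDAVP 24 h replicate 2, vehicle 3 h replicate 1, vehicle 6 h replicate 3 and vehicle 12 h replicate 1, and 12 to 17 without any 1 of dDAVP 24 h replicates 1 and 3, vehicle 3 h replicate 2, vehicle 6 h replicates 1 and 2, vehicle 12 h replicate 3 and vehicle 24 h replicate 2. The highest count of the mean effect over these fits was 35, without dDAVP 3 h replicate 1. The dependence of the effect on time passed for 0 of 43 (background 0.343%; 1 with an unadjusted p under 0.05), and DESeq2 called 0.

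The sizes were small. At 6 h the 43 log2 differences ran from 0.07 to 0.57 with a median of 0.35, beside a median of 0.32 over genes of at least 5 CPM and -0.40 over all genes tested. The medians of the members were 0.21 at 3 h, 0.12 at 12 h and 0.05 at 24 h, beside 0.17, 0.07 and -0.00 over genes of at least 5 CPM. For the mean effect the members' median was 0.18 against 0.14 over genes of at least 5 CPM, and 42 of the 43 values were above 0. The direction differed between settings. With only genes of at least 5 CPM kept, and TMM factors computed anew on them, the members' 6 h median was 0.05 and 2 passed (background 19.1%). Under that filter the 6 h median of all genes tested was 0.01. By limma on log2(TPM + 1) the members' 6 h median was -0.17 and 7 passed as lower (18% of genes passed by that test). In TPM the 43 genes summed to 2751 ± 161 in dDAVP and 3008 ± 93.5 in vehicle libraries at 6 h (SD, n = 3 each). The gene Gm24245 took 50.7% of all TPM in dDAVP and 44.5% in vehicle libraries at that time, and with it left out and the rest rescaled, 0 members passed at 6 h and their median was -0.02.

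**Figure D3:**
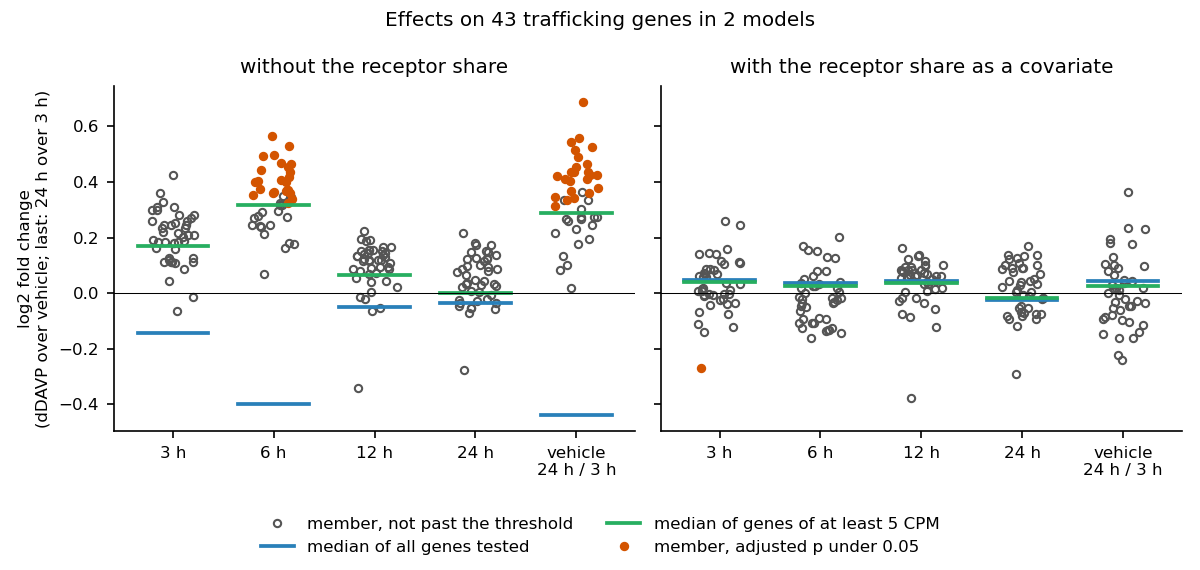
Log2 difference (y axis) of each of the 43 trafficking genes for dDAVP over vehicle at 3, 6, 12 and 24 h and for vehicle 24 h over 3 h (x axis), without and with the receptor share as a covariate. Filled points passed the test, and lines mark medians of all genes and of genes of at least 5 CPM. By TMM-scaled counts the members' median is 0.35 at 6 h beside 0.32 for genes of at least 5 CPM, it is -0.02 with the covariate, and by log2(TPM + 1), which is not drawn, it is -0.17.

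With the receptor share as a covariate, the members' 6 h median was -0.02, with 18 values above and 25 below 0. At that time 0 passed (background 0.336%), and 1 had an unadjusted p under 0.05. The 6 h shares did not overlap between groups, at 0.1397% to 0.286% in dDAVP and 0.458% to 0.601% in vehicle libraries. An effect of dDAVP that goes with the share therefore cannot be told apart from the share at 6 h. At 12 h the median was 0.06 (background 0.296%) and at 24 h 0.02 (background 0.35%), and 0 passed at either time. For the mean effect the median was 0.02, the same as over genes of at least 5 CPM, and 1 of 43 passed, Mal, as lower (background 1.22%, 0.276% as lower). The 95% intervals of the mean effect lay within a 1.2-fold difference in either direction for 43 of 43 genes under this model, and within 1.5-fold for 43 of 43 without the covariate. The mean effect includes 6 h, so the 1.2-fold bound covers only differences apart from the share. At 3 h 1 passed, again Mal as lower (background 0.726%, 0.108% as lower). The dependence on time passed for 0 (background 0.256%). The receptor share itself was tested as a slope: 43 of 43 values were negative, with a median of -0.25 per doubling of the share, and 40 passed as lower (93.0%). Of all genes tested 75.3% passed for this slope, 31.3% as lower, and of genes of at least 5 CPM 69.1% passed as lower, with a median slope of -0.21.

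**Figure D4:**
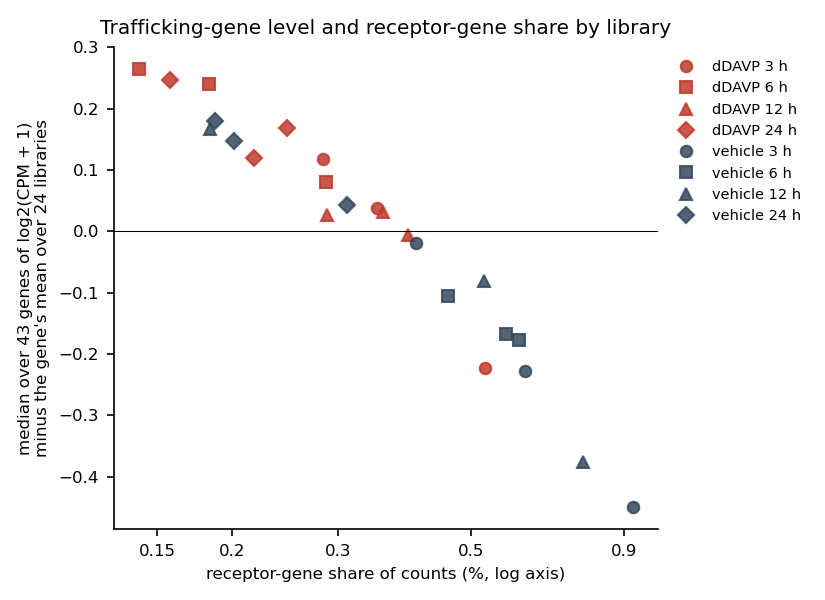
For each library, the median over the 43 trafficking genes of the deviation of log2(CPM + 1) from the gene's mean (y axis) against the receptor share in percent (x axis, log), for dDAVP and vehicle libraries. The library with the lowest share, dDAVP 6 h replicate 2 at 0.1397%, lies at 0.26 and the library with the highest, vehicle 3 h replicate 1 at 0.933%, at -0.45.

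Counted by role, the mean effect by TMM-scaled counts passed for 2 of 3 vesicle SNAREs (Vamp2 and Vamp8), 2 of 5 target SNAREs (Stx3 and Stx12) and 2 of 2 SM proteins. It passed for 7 of 8 Rabs, all but Rab27a, and for 2 of 4 genes of the Rab11 effector and motor group (Rab11fip1 and Myo5b). Of the exocyst 3 of 8 passed (Exoc2, Exoc4 and Exoc6), of retromer 2 of 3 (Vps35 and Vps29) and of the endocytic group 6 of 8, all but Ap2b1 and Ap2m1. Anxa2 passed and Mal did not. The background for this effect is 33.1% of all genes tested (16.7% as higher) and 49.8% of genes of at least 5 CPM (37.3% as higher), and groups of 2 to 8 genes cannot be read closely against it. All of these were higher with dDAVP by TMM-scaled counts, while the median of the 43 was -0.07 by log2(TPM + 1), and with the receptor share as a covariate none of them passed.

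Vamp2 (chr11:69088490-69092384, plus strand) had the smallest p of the members for the mean effect (gene coordinates are those of GENCODE M21 on GRCm38). At 3 h, Vamp2 had 20.6, 24.7 and 25.7 CPM in the dDAVP libraries, against 15.7, 18.3 and 18.9 CPM in the vehicle libraries. At 6 h, Vamp2 had 27.1, 28.9 and 23.1 CPM in the dDAVP libraries, against 17.3, 18.5 and 20.4 CPM in the vehicle libraries. The groups did not overlap at 3 h or at 6 h, though Vamp2 did not pass the test at 3 h. How many of all genes had groups apart in this way was not counted. Such separations, here and below, therefore cannot be read as particular to a member. At 12 h, Vamp2 had 29.0, 30.6 and 26.4 CPM in the dDAVP libraries, against 23.1, 31.2 and 26.7 CPM in the vehicle libraries. At 24 h, Vamp2 had 31.8, 31.7 and 29.2 CPM in the dDAVP libraries, against 31.0, 29.0 and 25.2 CPM in the vehicle libraries. At these later times they overlapped, and vehicle libraries were themselves higher than at 3 h and 6 h. The mean log2 difference was 0.28 ± 0.06 (SE; edgeR quasi-likelihood, BH-adjusted p = 0.01052), and 0.14 ± 0.05 with the receptor share as a covariate (adjusted p = 0.3372). At 6 h it was 0.49 ± 0.13 (adjusted p = 0.01765), and 0.16 with the covariate (adjusted p = 0.9057).

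Snap23 (chr2:120567671-120601255, plus strand) is the plasma membrane SNARE that completes this fusion complex. At 3 h, Snap23 had 40.5, 51.6 and 52.8 CPM in the dDAVP libraries, against 39.2, 41.4 and 52.3 CPM in the vehicle libraries. At 6 h, Snap23 had 57.5, 53.9 and 50.0 CPM in the dDAVP libraries, against 43.4, 42.3 and 43.9 CPM in the vehicle libraries. Overlap at 3 h gave way to separate groups at 6 h. At 12 h, Snap23 had 48.1, 54.0 and 42.6 CPM in the dDAVP libraries, against 39.0, 51.3 and 46.0 CPM in the vehicle libraries. At 24 h, Snap23 had 45.2, 56.5 and 51.4 CPM in the dDAVP libraries, against 49.7, 43.7 and 49.2 CPM in the vehicle libraries. They overlapped at both later times. The mean log2 difference of Snap23 was 0.16 ± 0.06 (edgeR quasi-likelihood, BH-adjusted p = 0.05865) and 0.03 ± 0.06 with the covariate (adjusted p = 0.9303), and by TPM it was -0.16.

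Stx3 (chr19:11775118-11819403, minus strand) is the syntaxin of the apical membrane. At 3 h, Stx3 had 56.1, 72.1 and 67.2 CPM in the dDAVP libraries, against 51.7, 59.1 and 68.2 CPM in the vehicle libraries. At 6 h, Stx3 had 92.1, 83.6 and 75.4 CPM in the dDAVP libraries, against 63.7, 63.7 and 67.9 CPM in the vehicle libraries. At 6 h all dDAVP libraries lay above all vehicle libraries, and at 3 h they overlapped. At 12 h, Stx3 had 61.2, 66.0 and 63.5 CPM in the dDAVP libraries, against 47.6, 65.3 and 54.5 CPM in the vehicle libraries. At 24 h, Stx3 had 67.9, 69.0 and 67.7 CPM in the dDAVP libraries, against 73.6, 70.7 and 65.7 CPM in the vehicle libraries. Both times showed overlap. The log2 difference of Stx3 at 6 h was 0.36 ± 0.12 (edgeR quasi-likelihood, BH-adjusted p = 0.0259) and its mean effect 0.16 ± 0.06 (adjusted p = 0.04182), against a mean effect of 0.01 with the covariate (adjusted p = 0.9802) and -0.09 by log2(TPM + 1).

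Stx12 (chr4:132853501-132884509, minus strand), the syntaxin of recycling endosomes, came second by p among members. At 3 h, Stx12 had 48.7, 56.2 and 54.7 CPM in the dDAVP libraries, against 36.5, 45.3 and 51.7 CPM in the vehicle libraries. At 6 h, Stx12 had 63.3, 64.3 and 56.5 CPM in the dDAVP libraries, against 46.2, 44.03 and 44.1 CPM in the vehicle libraries. The groups overlapped at 3 h and did not at 6 h. At 12 h, Stx12 had 51.3, 53.1 and 50.3 CPM in the dDAVP libraries, against 38.2, 51.3 and 46.2 CPM in the vehicle libraries. At 24 h, Stx12 had 52.4, 65.4 and 58.5 CPM in the dDAVP libraries, against 54.2, 56.7 and 50.5 CPM in the vehicle libraries. They overlapped again. Its mean log2 difference was 0.26 ± 0.06 (edgeR quasi-likelihood, BH-adjusted p = 0.01266), and 0.12 with the covariate (adjusted p = 0.4132). Among the SNAREs that did not pass at 6 h were Vamp3 at a log2 difference of 0.18, Stx4a at 0.16 and Stx7 at 0.28.

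Rab25 (chr3:88542029-88548300, minus strand) had the largest 6 h difference of the 43 genes by TMM-scaled counts. At 3 h, Rab25 had 169, 199 and 207 CPM in the dDAVP libraries, against 129, 161 and 174 CPM in the vehicle libraries. At 6 h, Rab25 had 249.9, 281 and 231 CPM in the dDAVP libraries, against 168, 161 and 185 CPM in the vehicle libraries. The 6 h dDAVP libraries were all above the 6 h vehicle libraries, and those of 3 h overlapped. At 12 h, Rab25 had 205, 216 and 235 CPM in the dDAVP libraries, against 155, 232 and 198 CPM in the vehicle libraries. At 24 h, Rab25 had 219.5, 261 and 225 CPM in the dDAVP libraries, against 223, 232 and 212 CPM in the vehicle libraries. Overlap was seen at 12 h and at 24 h. At 6 h Rab25 was 1.48-fold higher with dDAVP (log2 0.57 ± 0.13; edgeR quasi-likelihood, BH-adjusted p = 0.01624), and the log2 difference was 0.15 ± 0.08 with the covariate (adjusted p = 0.8503). Its mean effect was 0.28 ± 0.07 (adjusted p = 0.01474), and 0.10 ± 0.04 with the covariate (adjusted p = 0.4154).

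Rab11a (chr9:64715299-64737758, minus strand) marks the recycling endosomes that hold aquaporin-2. At 3 h, Rab11a had 103, 132 and 126 CPM in the dDAVP libraries, against 85.1, 101 and 119 CPM in the vehicle libraries. At 6 h, Rab11a had 145, 153 and 130.2 CPM in the dDAVP libraries, against 104, 104 and 112 CPM in the vehicle libraries. At 3 h its groups overlapped, and at 6 h they did not. At 12 h, Rab11a had 125, 121 and 117 CPM in the dDAVP libraries, against 89.6, 128 and 114 CPM in the vehicle libraries. At 24 h, Rab11a had 129, 159.7 and 134 CPM in the dDAVP libraries, against 126, 126 and 112 CPM in the vehicle libraries. At 12 h they overlapped, and at 24 h the lowest dDAVP library was just above the highest vehicle library. Rab11a did not pass the test at 24 h. The 6 h log2 difference was 0.42 ± 0.13 (edgeR quasi-likelihood, BH-adjusted p = 0.02354) and 0.02 ± 0.09 with the covariate (adjusted p = 0.9948). The mean effect was 0.25 ± 0.07 (adjusted p = 0.01847), and 0.08 ± 0.04 with the covariate (adjusted p = 0.6449). Rab27a, the Rab that did not pass, had a 6 h log2 difference of 0.07.

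Rab11fip1 (chr8:27138773-27174646, minus strand) binds Rab11 proteins on recycling endosomes. At 3 h, Rab11fip1 had 62.2, 78.1 and 73.6 CPM in the dDAVP libraries, against 47.9, 55.9 and 63.0 CPM in the vehicle libraries. At 6 h, Rab11fip1 had 67.4, 67.5 and 62.6 CPM in the dDAVP libraries, against 55.0, 57.3 and 54.2 CPM in the vehicle libraries. At 3 h the groups overlapped by a single pair of libraries, and at 6 h they did not overlap. At 12 h, Rab11fip1 had 71.2, 70.0 and 68.0 CPM in the dDAVP libraries, against 58.0, 74.4 and 63.9 CPM in the vehicle libraries. At 24 h, Rab11fip1 had 85.8, 74.1 and 83.5 CPM in the dDAVP libraries, against 78.7, 71.9 and 73.1 CPM in the vehicle libraries. Both later times showed overlap. Rab11fip1 had a mean log2 difference of 0.21 ± 0.05 (edgeR quasi-likelihood, BH-adjusted p = 0.01938) and of 0.10 with the covariate (adjusted p = 0.5559), and by log2(TPM + 1) it was -0.03.

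Myo5b (chr18:74440936-74771493, plus strand) encodes the motor that Rab11 and its effectors recruit. At 3 h, Myo5b had 16.2, 20.5 and 20.7 CPM in the dDAVP libraries, against 12.8, 14.7 and 18.2 CPM in the vehicle libraries. At 6 h, Myo5b had 20.6, 20.97 and 19.8 CPM in the dDAVP libraries, against 15.3, 14.4 and 12.9 CPM in the vehicle libraries. The 3 h groups overlapped and the 6 h groups did not. At 12 h, Myo5b had 17.7, 17 and 16.4 CPM in the dDAVP libraries, against 12.6, 19.3 and 14.3 CPM in the vehicle libraries. At 24 h, Myo5b had 21.2, 18.7 and 18.7 CPM in the dDAVP libraries, against 20.9, 17.8 and 18.9 CPM in the vehicle libraries. The groups overlapped at 12 h and at 24 h. Its 6 h log2 difference was 0.53 ± 0.15 (edgeR quasi-likelihood, BH-adjusted p = 0.01902), against 0.17 with the covariate (adjusted p = 0.9329). The mean effect was 0.26 ± 0.07 (adjusted p = 0.02129), against 0.11 with the covariate (adjusted p = 0.7002) and -0.11 by log2(TPM + 1).

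Dnm2 (chr9:21424908-21507759, plus strand) and Cltc (chr11:86694351-86757565, minus strand) stand for the endocytic arm. At 3 h, Dnm2 had 129, 158 and 149 CPM in the dDAVP libraries, against 99.1, 117 and 138 CPM in the vehicle libraries. At 6 h, Dnm2 had 177, 174 and 162 CPM in the dDAVP libraries, against 121, 125 and 126 CPM in the vehicle libraries. Dnm2 overlapped between groups at 3 h and not at 6 h. At 12 h, Dnm2 had 128, 140.3 and 135 CPM in the dDAVP libraries, against 101, 144 and 121 CPM in the vehicle libraries. At 24 h, Dnm2 had 163, 150.1 and 153 CPM in the dDAVP libraries, against 159.9, 151 and 144 CPM in the vehicle libraries. It overlapped at both of these times. The mean log2 difference of Dnm2 was 0.24 ± 0.06 (edgeR quasi-likelihood, BH-adjusted p = 0.01821), against 0.09 with the covariate (adjusted p = 0.5308) and -0.04 by log2(TPM + 1).

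At 3 h, Cltc had 223, 298 and 256 CPM in the dDAVP libraries, against 185, 214 and 245 CPM in the vehicle libraries. At 6 h, Cltc had 300.1, 288 and 253 CPM in the dDAVP libraries, against 225, 207 and 239.8 CPM in the vehicle libraries. The clathrin heavy chain overlapped between groups at 3 h and stood apart at 6 h. At 12 h, Cltc had 246, 266 and 253 CPM in the dDAVP libraries, against 203, 277 and 229 CPM in the vehicle libraries. At 24 h, Cltc had 313, 305 and 297 CPM in the dDAVP libraries, against 277, 268 and 266 CPM in the vehicle libraries. It overlapped at 12 h and stood apart at 24 h, where it did not pass the test. The mean log2 difference of Cltc was 0.22 ± 0.06 (edgeR quasi-likelihood, BH-adjusted p = 0.02157), against 0.07 with the covariate (adjusted p = 0.6982) and -0.04 by log2(TPM + 1). Of the light chains, Clta differed by a log2 value of 0.47 (adjusted p = 0.02184) and Cltb by 0.34 at 6 h, and neither passed with the covariate.

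**Figure D5:**
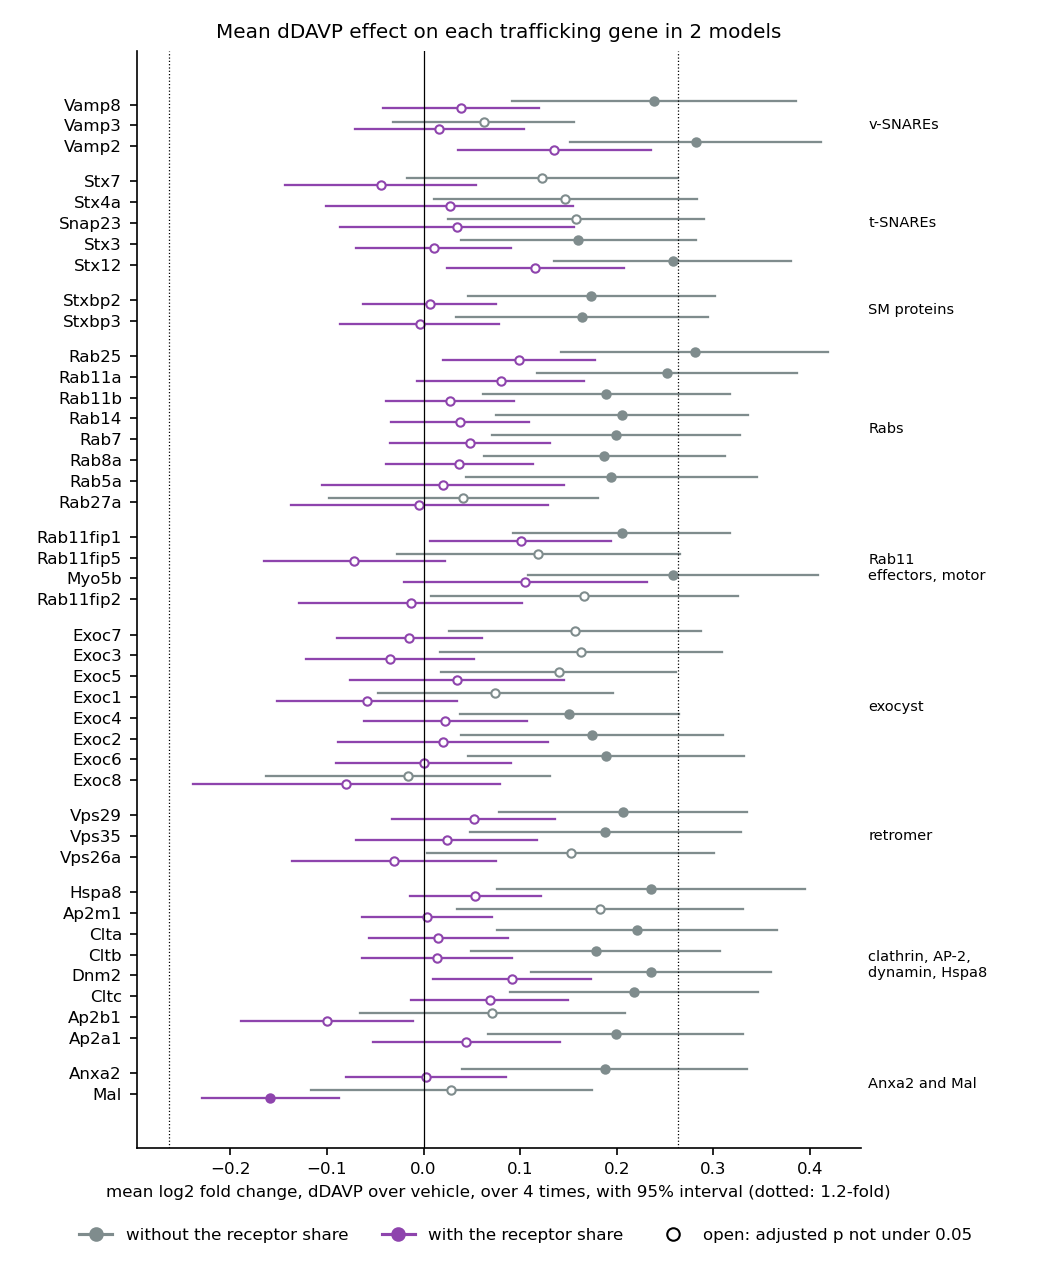
Mean log2 difference of dDAVP over vehicle over the 4 times (x axis) with its 95% interval for each of the 43 trafficking genes, without and with the receptor share as a covariate, and dotted lines at a 1.2-fold difference. By TMM-scaled counts 42 of 43 values are above 0, with the covariate 30 are above and 13 below, and Mal alone passes, at -0.16. By log2(TPM + 1), which is not drawn, the median is -0.07.

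Mal (chr2:127633226-127656695, minus strand) encodes a proteolipid of apical rafts that slows the internalisation of aquaporin-2 in kidney cells in culture. At 3 h, Mal had 400.2, 522 and 504 CPM in the dDAVP libraries, against 412, 498 and 579.7 CPM in the vehicle libraries. At 6 h, Mal had 603, 637 and 557 CPM in the dDAVP libraries, against 479, 486 and 524 CPM in the vehicle libraries. The groups overlapped at 3 h, and at 6 h the dDAVP libraries were the higher ones. At 12 h, Mal had 543, 570.0 and 585 CPM in the dDAVP libraries, against 457, 699 and 565 CPM in the vehicle libraries. At 24 h, Mal had 627, 706 and 656 CPM in the dDAVP libraries, against 739, 703 and 649 CPM in the vehicle libraries. The groups overlapped at 12 h and at 24 h. Without the covariate the mean log2 difference of Mal was 0.03 ± 0.07 (edgeR quasi-likelihood, BH-adjusted p = 0.7406). With the covariate it was -0.16 ± 0.03, a 0.896-fold level with dDAVP (95% interval -0.23 to -0.09; adjusted p = 0.01213), and at 3 h -0.27 ± 0.06 (adjusted p = 0.02143). With the covariate, the mean effect passed in 22 of 24 fits that each left out a library. It did not pass without dDAVP 3 h replicate 1 (adjusted p = 0.09136) or without vehicle 12 h replicate 2 (adjusted p = 0.07815). The 3 h call held in 16 of 24 such fits. It was lost without vehicle 3 h replicate 2 or 3, dDAVP 3 h replicate 1 or 2, vehicle 6 h replicate 1 or 2, vehicle 12 h replicate 1 or vehicle 24 h replicate 1, with adjusted p up to 0.3576 without dDAVP 3 h replicate 1. Mal also passed as lower by limma on log2(TPM + 1), at -0.24 (adjusted p = 0.001104). With only genes of at least 5 CPM kept, and TMM factors computed anew on them, it passed as lower at -0.10 (adjusted p = 0.02076). With RLE scaling of the counts it was 0.10 (adjusted p = 0.4494). Without the 2 libraries of highest receptor share, and without the covariate, its mean effect was -0.04 (adjusted p = 0.6537), and at 6 h it passed as higher, at 0.26 (adjusted p = 0.04438). The direction of Mal thus differed between settings.

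Exoc8 had the smallest p of the members for dependence on time, and it was picked out after the values were seen. Its log2 differences were 0.21 at 3 h, 0.35 at 6 h, -0.34 at 12 h and -0.28 at 24 h (edgeR quasi-likelihood, BH-adjusted p = 0.2403 for the dependence). It averaged 21.01 ± 1.27 CPM in dDAVP and 26.6 ± 2.95 CPM in vehicle libraries at 12 h, and 27.8 ± 6.75 CPM in dDAVP and 33.7 ± 1.32 CPM in vehicle libraries at 24 h (SD, n = 3 each). This change of sign with time did not pass the test.

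Time in culture was compared in the vehicle libraries alone, at 24 h against 3 h, which share their libraries with the dDAVP comparisons. Of the 43 genes, 24 passed as higher at 24 h (55.8%; background 38% of all genes tested, 18.4% as higher, and 54.6% of genes of at least 5 CPM, 40.6% as higher), with a median log2 difference of 0.35 against 0.29 over genes of at least 5 CPM. Vamp2 differed most, by 0.69 ± 0.13 (edgeR quasi-likelihood, BH-adjusted p = 0.001869), followed in size by Exoc7 at 0.56 (adjusted p = 0.006557), Vamp8 at 0.54 (adjusted p = 0.01068) and Rab25 at 0.53 (adjusted p = 0.009826). The receptor share was 0.233% at 24 h and 0.652% at 3 h in these vehicle libraries. With it as a covariate 0 of 43 passed (background 0.693%) and the median was -0.00, and Vamp2 was at 0.36 (adjusted p = 0.105). By log2(TPM + 1) 6 of 43 members passed, all as lower at 24 h, where 27.7% of all genes tested passed in either direction. The count by TMM-scaled counts was 1 without vehicle 3 h replicate 1, 4 without vehicle 24 h replicate 1 or 2, 11 without vehicle 3 h replicate 2, and 20 to 35 without any other library. Shares over all genes in those fits are not given here.

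The wider pathway was read from 210 further trafficking genes in 8 lists, chosen with earlier results known, of which 208 were found and 205 tested. By TMM-scaled counts the mean effect passed for 102 of 205 (49.8%), with 91 higher and 11 lower with dDAVP. The background was 33.1% of all genes tested (16.7% as higher), and 49.8% of genes of at least 5 CPM (37.3% as higher). Whether all 205 reach 5 CPM is not given here, so neither background is matched for level. No excess can be read from them, for the 205 or for a single list. By list, 15 of 27 other SNAREs passed (12 higher), 18 of 35 other Rabs (17 higher), 13 of 36 Rab effectors and myosins (9 higher), 9 of 17 retromer and nexin genes (all higher) and 17 of 32 clathrin and endocytic genes (16 higher). Of the list of SNARE regulators 5 of 17 passed (3 higher), but 1 of the lower genes, Napepld, is a phospholipase and no SNARE regulator. Of exocyst partners 5 of 11 passed (all higher), as did 20 of 30 proteins that bind or handle aquaporin-2 (all higher). With the receptor share as a covariate 8 of 205 passed (3.90%, background 1.22% of all genes tested), all higher, with a median over the 205 of 0.02. That background covers 29743 genes, of which 13123 reached 5 CPM in a group. It is therefore not matched for level, and no excess can be read from it.

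Those 8 lie next to members of the machinery. Rab17, an epithelial Rab of recycling endosomes, was higher with dDAVP by a mean log2 difference of 0.64 ± 0.08 (edgeR quasi-likelihood, BH-adjusted p = 8.522e-06), and by 0.45 ± 0.06 with the covariate (adjusted p = 1.106e-05). Rab4a, of fast recycling, was higher by 0.35 ± 0.06, and by 0.21 ± 0.04 with the covariate (adjusted p = 0.01011). Tbc1d1, a GTPase-activating protein for Rabs, was higher by 0.46 ± 0.06, and by 0.33 ± 0.04 with the covariate (adjusted p = 2.072e-05). These 3 act on the Rab arm, whose members themselves did not pass with the covariate. Snx6, a sorting nexin that works with retromer, was higher by 0.44 ± 0.07, and by 0.26 ± 0.03 with the covariate (adjusted p = 1.381e-05). Exoc6b, a paralogue of Exoc6, and Ralgps2, an exchange factor for the exocyst's partner Ral, were higher by 0.20 ± 0.04 and 0.31 ± 0.05 with the covariate. Nedd4l, a ubiquitin ligase of collecting duct channels, was higher by 0.23 ± 0.04 with it (adjusted p = 0.0008114), and Pllp, a proteolipid related to Mal, by 0.38 ± 0.10 (adjusted p = 0.04886). At single times with the covariate, 6 of the 205 passed at 3 h (2.93%, background 0.726% of all genes tested, not matched for level). All 6 are among these 8, whose choice by the mean effect includes 3 h. At 6 h Exoc6b alone passed at 0.42, at 12 h 0 of the 205 passed, and at 24 h Rab17 alone passed at 0.41.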

How the data were processed

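RNA was measured in 24 libraries, 3 for each of 8 groups. Estimated counts per gene were made by the authors and deposited without normalization, and TPM was deposited in a second table. Salmon 0.14.10 and GRCm38.p6 are named per the submitters' processing notes, and how transcripts were summed to genes is not given in the sources used here. Gene names came from GENCODE M21. Members and lists were chosen with earlier results of these data known.

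After rounding to whole numbers, the estimated counts were fitted in R 4.3.3 with edgeR 4.0.16 and limma 3.58.1, using TMM factors of 0.814 to 1.326. By filterByExpr 29743 genes were tested, with a mean for each of the 8 groups in a quasi-likelihood model of 16 residual degrees of freedom. The model was checked on simulated counts with the same spread for all genes and no gradient of receptor share between libraries. That check does not cover calls that go with the share. Adjusted p (Benjamini-Hochberg over all genes tested) had a threshold of 0.05. A second model added the log2 share of counts in genes named Olfr*, Vmn1r* and Vmn2r*. The biological coefficient of variation was 0.191, and 0.0797 with that share. CPM was computed with the TMM factors. Intervals are 95%.

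Values in every library are given for Aqp2, for Vamp2, Snap23, Stx3, Rab11a, Rab25, Myo5b and Mal, for members past the threshold with the share in the model (at most 6), and for up to 8 members of smallest p for the mean effect, for passing at 2 or more times or for dependence on time. Up to 4 genes per further list qualified by smallest p, of which those that also passed with the share are described. Alternatives were RLE scaling, DESeq2 1.42.0, other filters, the replicate number as a block, limma on log2 TPM with pseudocounts of 1 and 0.1, a threshold of 0.01, fewer libraries and leaving out each library. The share with the block, TPM without Gm24245, and leaving out each library with the share in the model were chosen after seeing the data.

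Exons of 17 of the 43 members overlap another gene, by over 10% only in Ap2a1, and Stxbp3, Rab5a, Rab7 and Rab11b have named pseudogenes in the table, so reads could be split there. Replicate libraries differed beyond counting noise, so none was merged. Promoter windows came from RefSeq.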

Additional observations from a re-analysis of the deposited data

How the results depend on the processing

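Counts of the 43 members that passed are given for 6 h, the mean effect and vehicle 24 h against 3 h, which were 24, 27 and 24, all higher. BH adjustment runs over all genes, and shares over all genes are not given beside the counts of each setting. A rise or fall may therefore not be particular to the members. RLE scaling gave 11 at 6 h and 14 for the mean effect, no filter 6 and 9, and the threshold of 0.01 gave 0, 0 and 4. The filter of 5 CPM gave 2, 12 (11 higher) and 11 (9 higher). TPM gave lower calls only: 7, 8 and 6 with a pseudocount of 1, 7, 7 and 5 with 0.1, and 0, 5 and 4 with no filter. Without Gm24245 TPM gave 0, 2 (1 lower) and 5 (1 lower). The receptor share as a covariate gave 0, 1 (lower) and 0, also with the replicate block, and with the filter of 5 CPM 1 (lower), 1 (lower) and 2 (1 lower). Without the 2 libraries of highest share the mean effect gave 3 and the vehicle comparison 7, and 6 libraries alone gave 14 there. At 3 h the count was 1, Mal as lower, in place of 0 with the filter of 5 CPM, with each TPM setting that kept Gm24245 and with the covariate, alone, with the block or with that filter. Leaving out a library gave 0 to 29 at 6 h, 1 to 35 for the mean effect and 1 to 35 in vehicle. With the covariate it gave 0 or 1 at 3 h, at 24 h (1 lower without dDAVP 24 h replicate 1) and for the mean effect. The counts at 12 h and for the dependence on time were 0 under every setting run. The cause of these differences was not tested.

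DESeq2 gave 24, 31 and 27. Whether libraries with the same replicate number are paired is not settled here. Of 12 same-numbered pairs, 5 correlated above 0.1 (range -0.50 to 0.72), and 4 of 12 dDAVP libraries correlated best with their own number. Libraries of a group also differed in receptor share, which can enter these correlations. They therefore cannot exclude a pairing. The fit with the replicate block called 27 at 6 h, 31 for the mean effect, 27 in vehicle and 0 elsewhere. Shares over all genes are not given for this fit or for DESeq2, so these counts cannot be read as particular to the members.

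Mean effects that turned negative were, with a pseudocount of 1 and with 0.1, those of Dnm2 (-0.03503, -0.03613), Rab11fip1 (-0.0339, -0.0395), Myo5b (-0.110, -0.151), Cltc (-0.0352, -0.0367), Snap23 (-0.159, -0.168), Stx3 (-0.0942, -0.0995) and Mal (-0.235, -0.2365). No filter gave the values of a pseudocount of 1. Without Gm24245, Myo5b was at -0.0648, Snap23 at -0.0892, Stx3 at -0.0224 and Mal at -0.159. Stx3 was at -0.00549 with the covariate and the filter of 5 CPM. Mal was at -0.102 with that filter, -0.159 with the covariate, -0.174 with both, -0.152 with the covariate and the block, -0.0373 without the 2 libraries of highest share, and from -0.0101 to 0.0623 when a library was left out.

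The 3 libraries per group limit precision. By TMM-scaled counts the 95% intervals of the mean effect exclude a difference over 1.5-fold for each member, and smaller differences can be missed. This bound does not cover single times or the other scalings, between which the direction differed.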
